A study of Mus musculus with 12 samples.

Results

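Lungs of mice given the same allergens for the same time differed widely in their level of Chil3, a secreted product of allergic lung. The 10 lung libraries of allergen-treated mice, out of 12 libraries in the study, were chosen by their treatment and ordered by their measured Chil3, and every other endogenous probe of the panel except Chil4 was related to that order without regard to genotype. The tested mice were KO_DRA, labelled as Chil4-deficient and described in the labels both as KD and as KO (n = 5), and B6_DRA, their wild type littermates (n = 5). Both groups were dosed intranasally for 8 weeks, on 2 occasions each week, with the allergens called DRA, a name left unexpanded by the submitters. B6_PBS mice, wild type and given PBS on the same schedule (n = 2), were used only as a baseline, and Chil4-deficient mice given PBS were not analysed here. RNA came from 1 lobe of each lung, and neither sex nor age is stated. The NanoString nCounter innate immune panel reads RNA by hybridised barcodes that are counted one by one, with no amplification step.

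In type 2 inflammation, T helper cells and innate lymphoid cells secrete IL-4 and IL-13, which signal through the IL-4 receptor alpha chain and the transcription factor STAT6. Macrophages that receive this signal become alternatively activated and secrete Chil3 (also called Ym1) and Retnla, make arginase and release chemokines, while epithelium and stroma release eotaxins that draw eosinophils into the lung. Chil3 encodes a secreted chitinase-like protein without chitinase activity and is among the most abundant transcripts of the allergic mouse lung, so it serves here as an index of this programme.

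Chil3 in the authors' scaled counts was 6329 in KO_DRA 10, 8525 in KO_DRA 9, 15409 in B6_DRA 5, 18388 in KO_DRA 12, 33108 in KO_DRA 11, 63421 in B6_DRA 4, 100949 in B6_DRA 3, 104660 in B6_DRA 7, 118069 in B6_DRA 6 and 162405 in the library labelled KO_DRA 8. This sequence is called the Chil3 order below, and values listed in the Chil3 order follow it. The B6_PBS libraries had 5289 and 4526, below all 10. The allergen libraries spanned 4.68 log2 units, a 25.7-fold range, and filled it without a break, since the widest gap between neighbours was 0.94 log2 units, or 20% of the range. KO_DRA libraries held the 2 lowest places and the highest. The mean log2 value was 14.44 in KO_DRA and 16.0 in B6_DRA, and B6_DRA 5 and the library labelled KO_DRA 8 lay away from their groups. These values chose the order and are a description. Each library was measured 1 time, so the order among close neighbours, such as B6_DRA 3, B6_DRA 7 and B6_DRA 6, is not resolved.

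Chil4, the targeted gene and a near-identical neighbour of Chil3, gave scaled counts of 5092, 6701, 13857, 14729, 27595, 49613, 84770, 84379, 97912 and 125242 in the Chil3 order, against 4416 and 3629 in B6_PBS. It ran in parallel with Chil3 in KO_DRA and B6_DRA libraries alike and was highest in the library labelled KO_DRA 8. Every KO_DRA library exceeded both B6_PBS libraries. This goes against the label of the whole KO_DRA group, provided that the probe detects the targeted sequence. The labels state neither the position of the probe within the gene nor whether it also reads Chil3 RNA. Chil4 is therefore left out of all relations, and KO_DRA stands for the label only. Total counts ran from 320290 to 673201 per allergen library, with 4.80% to 43.6% of them from Chil3, Chil4 and Retnla. Lung endothelial genes such as Cdh5 and Tek were detected in every library. Of the epithelial list only Cdh1 is on the panel, so surfactant and secretoglobin genes could not be checked.

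**Figure D1:**
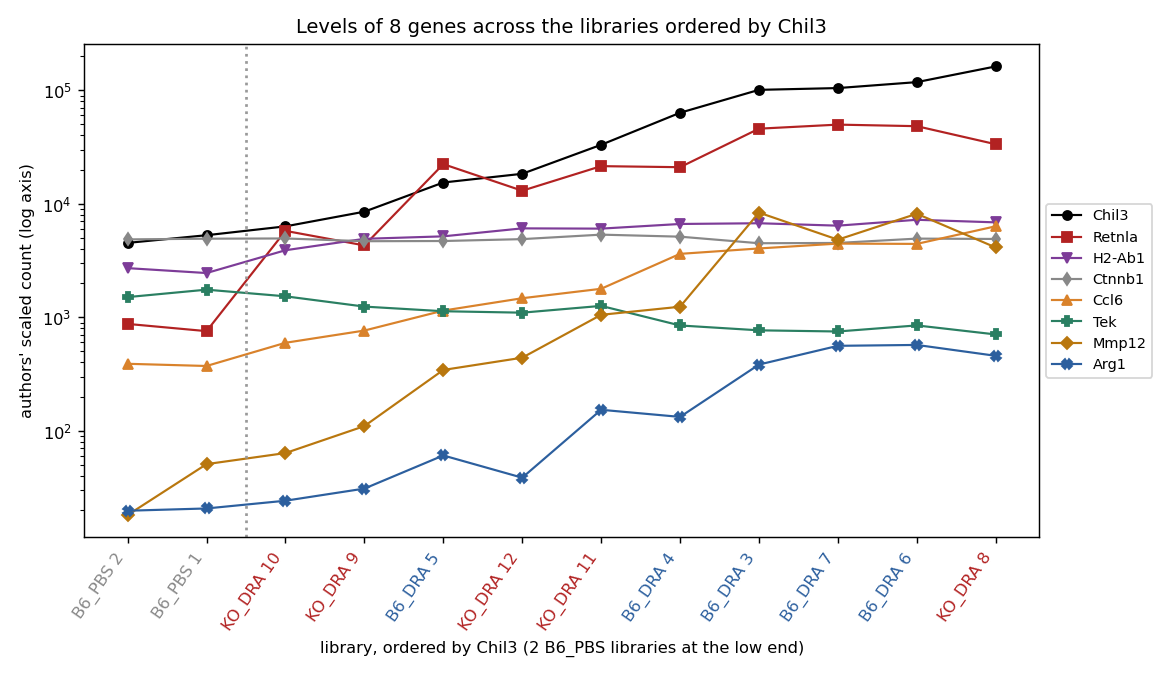
Scaled counts (log axis) of 8 genes in the 2 B6_PBS libraries and the 10 allergen libraries, ordered from left to right by Chil3. Points are single libraries, red names mark KO_DRA, blue names B6_DRA and grey names B6_PBS. Mmp12 climbs more steeply than Chil3, Ccl6 climbs beside it, H2-Ab1 flattens early, Ctnnb1 stays level and Tek declines.

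The promoter windows of Chil3 and Chil4 are shown because the index gene and the excluded gene moved in parallel across all libraries. Both come from RefSeq on GRCm38.p6, minus strand, Chil3 at chr3:106167515-106167814 and Chil4 at chr3:106219430-106219729, and are written 5′ to 3′. Capitals mark a match to TTCNNNGAA, a spacing of the STAT element that many STAT factors accept, which begins at -172 from the start of Chil3 and at -200 from the annotated start of Chil4.
Chil3: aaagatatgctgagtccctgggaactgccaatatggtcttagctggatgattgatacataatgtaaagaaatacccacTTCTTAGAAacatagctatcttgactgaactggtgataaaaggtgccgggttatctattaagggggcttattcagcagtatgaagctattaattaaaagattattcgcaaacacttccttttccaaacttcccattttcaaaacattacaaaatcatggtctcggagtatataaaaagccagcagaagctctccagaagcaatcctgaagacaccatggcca
Chil4: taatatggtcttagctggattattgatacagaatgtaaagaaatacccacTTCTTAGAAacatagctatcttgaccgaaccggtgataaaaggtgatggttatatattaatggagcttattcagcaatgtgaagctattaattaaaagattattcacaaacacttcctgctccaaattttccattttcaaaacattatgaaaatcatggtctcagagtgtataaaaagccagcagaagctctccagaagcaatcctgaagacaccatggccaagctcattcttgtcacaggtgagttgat
The same stretch around the capitals is found in both windows. The match is a description of letters and not a binding site.

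Of 732 endogenous probes other than Chil3 and Chil4, 648 passed the filter on low counts and were fitted with edgeR's quasi-likelihood model on log2 Chil3. The slope is the log2 change of a gene for each doubling of Chil3, so a gene with slope 1 doubles when Chil3 doubles. At an adjusted p under 0.05, 195 genes rose with Chil3, which is 30.1% of those tested, and 109 fell, which is 16.8%. A further 169 genes (26.1%) did not pass and had a 95% interval of the slope within 0.15 of 0. These are called bounded here, because the interval excludes a steep relation in either direction. With 16 shallow genes that did pass, such intervals numbered 185, or 28.5%. The remaining 175 genes (27%) had intervals too wide to place them. An unadjusted p under 0.05 was reached by 342 genes. The median slope was 0.02 over all genes tested. Among the risers 37 had a slope of at least 0.5, 87 lay between 0.2 and 0.5 and 71 lay below 0.2, whereas among the fallers only 39 reached -0.2 or steeper. Whole-lung counts cannot tell fewer cells of a type from less RNA per cell.

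The order also ran through the panel as a whole. The first principal component of the 648 genes, computed without Chil3 and Chil4, held 66.1% of their variance over the 10 libraries and correlated with log2 Chil3 at r = 0.99 and rho = 0.99, a description since its genes are those tested above. For the median gene Chil3 accounted for 39.7% of the variance, and for 274 genes it accounted for more than 50%. By Spearman correlation with 100000 permutations, 170 genes correlated positively and 97 negatively after Benjamini-Hochberg adjustment over all 648, and by Pearson correlation 175 and 96. Without KO_DRA 10 and KO_DRA 9, the 2 libraries farthest from the median, r kept its sign for 195 of 195 risers and 107 of 109 fallers, while 37 rank correlations passed. The libraries that remained had a part in calling these genes, so the kept signs are a description. Without KO_DRA 10 alone 160 rank correlations were called, against 267 with all libraries. The edgeR calls were 170 higher and 93 lower without the library labelled KO_DRA 8, and 185 higher and 104 lower without B6_DRA 5.

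The direction of shallow slopes depended on the scaling. Of the calls, 64.1% were higher with the authors' scaling, 50.3% with TMM, 51.1% with DESeq2 and 11.7% with library size alone, where the median slope of all genes moved to -0.28 and each library's total includes Chil3, Chil4 and Retnla. With TMM all 109 fallers were negative and 194 risers were positive, while the other riser, Tigit, did not pass the filter there. With library size alone 109 risers were positive, 83 were negative and 3 did not pass the filter. Slopes and list medians below use the authors' scaling, and a list with a positive median that falls below 0 with library size alone is named as such. Of the measures of library quality, log2 total counts, which include Chil3 itself, gave r = 0.74 (permutation p = 0.0185, adjusted p = 0.0925), rho = 0.67 (p = 0.0388, adjusted p = 0.097) and r = 0.85 without the 2 farthest libraries. Counts without Chil3, Chil4 and Retnla gave r = -0.01 (permutation p = 0.966, adjusted p = 0.985), rho = -0.08 (p = 0.838) and r = 0.38 without the 2. The mean negative control, 3 to 5.63 counts, gave r = 0.64 (permutation p = 0.0428, adjusted p = 0.107 over 5 measures), rho = 0.75 (p = 0.0156, adjusted p = 0.078) and r = 0.53 without the 2. With it as a covariate, an alternative added after seeing the data, 139 genes rose and 69 fell. Chil3 and the other genes share 1 scaling factor per library, and with Chil3 and the genes scaled by separate parts of the housekeeping probes 185 rose and 115 fell.

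**Figure D2:**
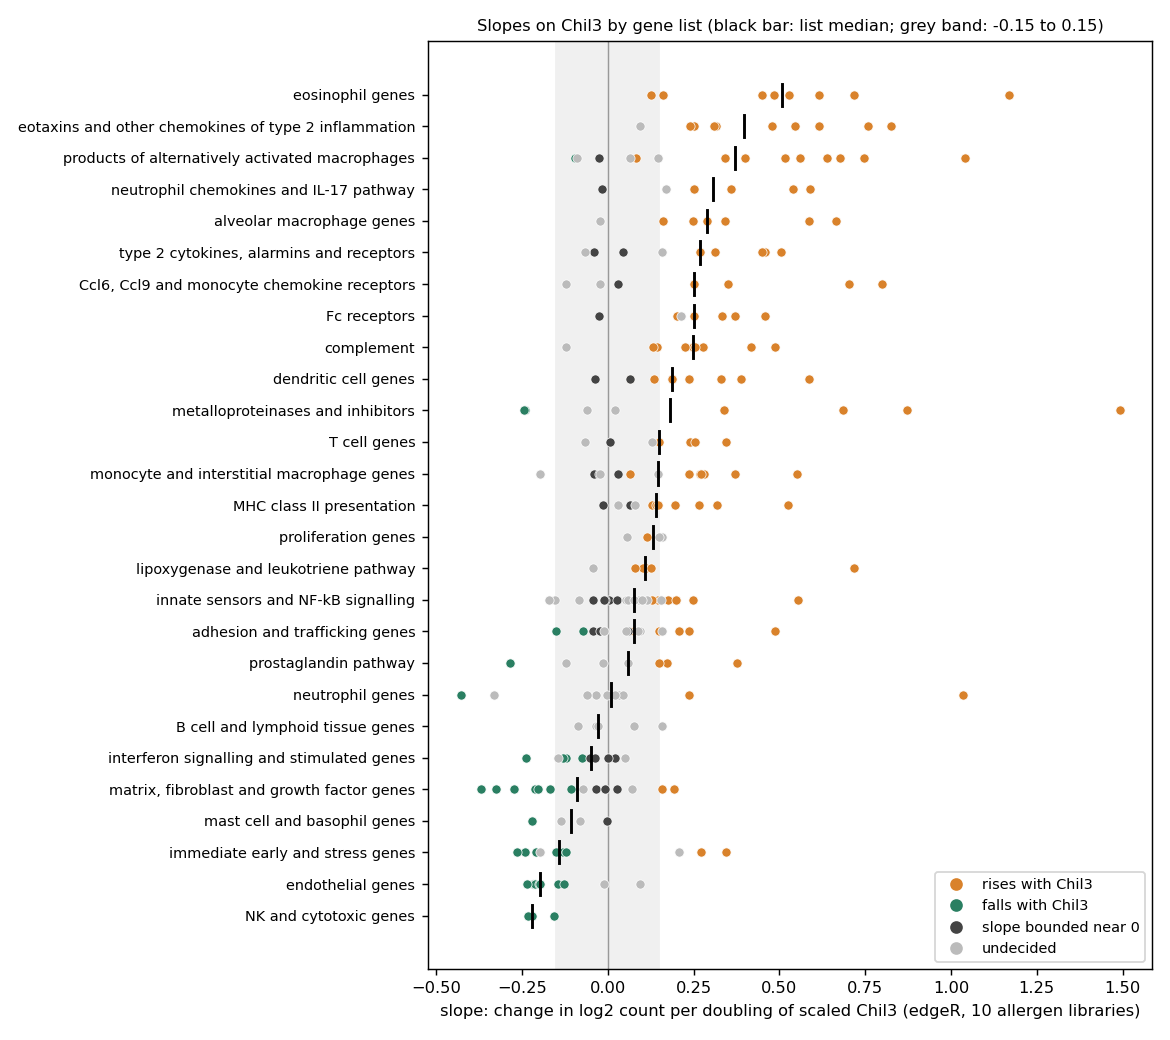
Slope on Chil3 (log2 change per doubling of Chil3, 10 allergen libraries) of every tested gene of 27 gene lists, sorted by list median. Each point is 1 gene coloured by its call, black bars are list medians and the grey band marks -0.15 to 0.15. Eosinophil genes lie highest with a median of 0.51 and cytotoxic and endothelial genes lowest with medians of -0.22 and -0.20.

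Type 2 cytokines and their alarm signals followed Chil3. Of 9 tested members of this list (12 on the panel), 5 rose, none fell, 2 were bounded and 2 were undecided, with a median slope of 0.27 against 0.02 over all genes. Il33, the alarmin released by damaged epithelium and stroma, measured 619, 623, 905, 1023, 850.1, 1737, 1558, 1562, 1522 and 1449 in the Chil3 order, against 589.9 and 483 in B6_PBS. It stepped up at B6_DRA 4, and every library from there on exceeded every library before it. Its slope was 0.31 (SE 0.0426, adjusted p = 6.19e-05). Il1rl1, which encodes the IL-33 receptor ST2, rose with a slope of 0.27 (adjusted p = 0.00143). Il13, the cytokine that drives mucus and Chil3 itself, measured 3.59, 8.15, 9.58, 9.66, 13.6, 18.4, 31.1, 16.8, 21.0 and 30.2, against 4.31 and 2.47 in B6_PBS. The values were small, 9 of 10 libraries exceeded their own background, and the slope was 0.51 (SE 0.0716, adjusted p = 7.73e-05). Il4 rose with a slope of 0.46 (adjusted p = 0.00405) and lay above background in 8 libraries. Il5ra, the receptor for the eosinophil cytokine IL-5, rose as well, whereas Il5 itself, Il9 and Il25 did not pass the filter. The signalling parts did not move with the cytokines: Il4ra had a slope of 0.04 (95% interval -0.01 to 0.10) and Stat6 one of -0.04 (-0.10 to 0.01), both bounded.

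Products of alternatively activated macrophages were among the steepest genes. Of 14 tested members 9 rose, 1 fell, 1 was bounded and 3 were undecided, with a median slope of 0.37. Retnla, a secreted resistin-like protein, measured 5775, 4299.8, 22366, 13042, 21476, 21022, 45921, 49865, 48313 and 33497 in the Chil3 order, against 755 and 875 in B6_PBS. It was higher in B6_DRA 5 than in its neighbours and lower in the library labelled KO_DRA 8 than in the 3 libraries before it, and its slope was 0.64 (SE 0.099, adjusted p = 0.000162). Arg1, which encodes arginase, measured 24.2, 31.0, 60.7, 38.6, 153, 133, 384, 561, 571 and 458, against 20.7 and 19.8 in B6_PBS, so the lowest allergen libraries were close to the PBS level. Its slope was 1.04 (SE 0.0859, adjusted p = 7.17e-07), a fitted 29.2-fold across the range of Chil3. Trem2, a lipid-sensing receptor of macrophages, had a slope of 0.75 (adjusted p = 4.73e-07), and Mrc1, the mannose receptor CD206, one of 0.34 (adjusted p = 1.13e-05). Clec7a, the fungal beta-glucan receptor dectin-1, measured 349.9, 414, 492, 662, 750.2, 1066, 1561, 1458, 1603 and 1778, against 341 and 308 in B6_PBS. It departed from the Chil3 order at 1 neighbouring pair only, with a slope of 0.52 (SE 0.0253, adjusted p = 9.05e-09) and rho = 0.99 (permutation p = 1e-05, the smallest the resamples can give, adjusted p = 0.000926), and with r = 0.99 (permutation p = 1e-05, adjusted p = 0.000563), or 0.99 without the 2 farthest libraries. The adhesion gene Cdh1, listed here because macrophages express it after IL-4, fell, but it is also the main cadherin of epithelium.

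Promoters of 2 of these genes are shown because they moved with Chil3 and hold TTCNNNNGAA, the spacing of the STAT element that STAT6 is known to prefer, in capitals. They are from RefSeq on GRCm38.p6, Retnla on the plus strand at chr16:48842359-48842658 and Clec7a on the minus strand at chr6:129472730-129473029, with the motif beginning at -145 and -131 from the start.
Retnla: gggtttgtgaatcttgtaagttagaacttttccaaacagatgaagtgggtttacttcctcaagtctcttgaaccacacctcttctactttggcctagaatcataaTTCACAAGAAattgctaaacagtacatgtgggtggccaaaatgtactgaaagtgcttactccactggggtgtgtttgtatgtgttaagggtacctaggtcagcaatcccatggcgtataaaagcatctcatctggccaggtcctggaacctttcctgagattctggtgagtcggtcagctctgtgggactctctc
Clec7a: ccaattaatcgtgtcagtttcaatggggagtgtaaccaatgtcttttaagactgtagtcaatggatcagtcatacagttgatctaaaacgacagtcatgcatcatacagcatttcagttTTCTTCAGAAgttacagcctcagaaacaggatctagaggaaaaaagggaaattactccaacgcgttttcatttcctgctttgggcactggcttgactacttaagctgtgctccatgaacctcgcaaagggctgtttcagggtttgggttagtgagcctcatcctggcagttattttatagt
Promoter windows were found for 145 of the 195 risers, 83 of the 109 fallers and 129 of the 169 bounded genes. TTCNNNNGAA stood in 19 of 176 windows of risers (10.8%), 7 of 108 of fallers (6.48%), 8 of 162 of bounded genes (4.94%) and 6.95% of all 32851 windows in the RefSeq table. TTCNNNGAA stood in 10 windows of risers (5.68%), 8 of fallers (7.41%), 22 of bounded genes (13.6%) and 8.30% of all windows. Either motif stood in 15.3% of the windows of risers, 13.9% of fallers, 16.7% of bounded genes and 14.6% of all windows. Both motifs read the same on either strand, and these shares are descriptions without a test.

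All 8 tested members of the eosinophil list rose (9 on the panel), with a median slope of 0.51, the highest of the lists. Outside the list, the eosinophil-associated ribonuclease gene Ear6 rose, whereas its relative Ear3 was undecided (rho = 0.27, permutation p = 0.448, adjusted p = 0.556). Epx, eosinophil peroxidase, did not pass the filter. Prg2, the major basic protein of eosinophil granules, measured 12.6, 32.6, 42.6, 22.9, 29.5, 74.7, 111, 101, 160.3 and 99.7 in the Chil3 order, against 5.17 and 4.94 in B6_PBS. Its slope was 0.62 (SE 0.0868, adjusted p = 7.56e-05). Rnase2a, an eosinophil-associated ribonuclease whose probe may bind close relatives, measured 40.4, 46.5, 404, 139, 325, 553, 2072, 1356, 3112 and 1101, against 2.59 and 3.29 in B6_PBS. The neighbouring libraries KO_DRA 12 and B6_DRA 5 had 139 and 404, and the slope was 1.17 (SE 0.154, adjusted p = 4.54e-05). Ccr3, the eotaxin receptor, had a slope of 0.53 (adjusted p = 3.94e-05), and Alox15, the lipoxygenase of eosinophils and alternatively activated macrophages, one of 0.72 (adjusted p = 5.45e-05). Siglecf, which alveolar macrophages also carry, had a shallow slope of 0.16 (adjusted p = 0.00265) and levels of 96.2 to 193. With library size alone 6 of the 8 stayed positive.

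The chemokines that recruit these cells rose with them. Of 10 tested chemokines and receptors of type 2 inflammation (12 on the panel) 9 rose and Ccr8 was undecided, with a median slope of 0.40. Ccl11, eotaxin-1, measured 29.6, 35.9, 112, 49.5, 123, 200.3, 321, 314, 334 and 316 in the Chil3 order, against 19.0 and 18.1 in B6_PBS. Its slope was 0.76 (SE 0.0657, adjusted p = 9.62e-07). Ccl24, eotaxin-2, spanned 7.18 to 164 with a slope of 0.83 (SE 0.174, adjusted p = 0.00163), and was far higher in B6_DRA 7 and B6_DRA 6, at 109 and 164, than in the library labelled KO_DRA 8 at 35.8. Ccl8, a ligand of CCR8 in mice, measured 124, 336, 783, 478, 464, 964, 1607, 1336, 2123 and 1137, against 40.5 and 37.9 in B6_PBS. Its slope was 0.61 (SE 0.0992, adjusted p = 0.000209), and even the lowest allergen library exceeded both PBS libraries. Ccl17, which attracts T helper cells through CCR4, had a slope of 0.48 (adjusted p = 8.03e-06), and Ccl2, a monocyte attractant, one of 0.55 (adjusted p = 4.41e-05).

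The gene that tracked Chil3 most closely by its p was the macrophage and myeloid chemokine Ccl6. It measured 597, 765, 1146, 1473, 1784, 3623, 4044, 4462, 4435 and 6342 in the Chil3 order, against 373 and 389.6 in B6_PBS, with 1 neighbouring pair out of order. Its slope was 0.70 (SE 0.0287, adjusted p = 1.78e-09), rho was 0.99 (permutation p = 2e-05, adjusted p = 0.0013), r was 0.995 (permutation p = 2e-05, adjusted p = 0.000563) and r without the 2 farthest libraries was 0.99. Its neighbour and paralog Ccl9 had a slope of 0.80 (adjusted p = 2.84e-07). Ccr1, the receptor of both, measured 84.3, 88.0, 106, 133, 163, 168, 201, 244, 249 and 252, against 52.6 and 58.5 in B6_PBS. It placed the 10 libraries in exactly the Chil3 order, with a slope of 0.35 (SE 0.0302, adjusted p = 9.62e-07) and rho = 1 (permutation p = 1e-05, adjusted p = 0.000926), and r was 0.98 (permutation p = 1e-05, adjusted p = 0.000563), or 0.96 without the 2. Of the 7 tested members of this group 4 rose, and Ccr2, the receptor of inflammatory monocytes, was bounded at 0.03 (-0.06 to 0.12).

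The steepest gene of the panel was Mmp12, the macrophage elastase. It measured 63.7, 110.0, 344, 441, 1052, 1239, 8367, 4832, 8172 and 4123 in the Chil3 order, against 50.9 and 18.1 in B6_PBS. Each of the first 6 libraries exceeded the one before it, and the last 4 held the 4 highest values. Its slope of 1.49 (SE 0.122, adjusted p = 7.17e-07) exceeded 1 throughout its 95% interval, 1.21 to 1.77, so it rose more steeply than Chil3, a fitted 126-fold across the order. Mmp19 (slope 0.87, adjusted p = 7.43e-07), Mmp13 (0.68, adjusted p = 0.00115) and Adam8 (0.34, adjusted p = 5.33e-06), a metalloproteinase of leukocytes, rose as well. Timp3, the matrix-bound inhibitor of such proteases, fell, with levels of 3434, 2573, 2364, 2252, 2554, 1730.5, 1676, 1415, 1545 and 1439 in the Chil3 order against 3895 and 3349.5 in B6_PBS and a slope of -0.24 (SE 0.0296, adjusted p = 2.63e-05). Adamts9 fell too, so of 8 tested members of the list 4 rose, 2 fell and 2 were undecided, with a median slope of 0.18 that turned to -0.07 with library size alone. Other genes among the 15 highest slopes were Fbp1, an enzyme of gluconeogenesis (slope 0.998), Serpinb2, an inhibitor of plasminogen activators (0.71), Ear6, another eosinophil-associated ribonuclease (0.86), and the chemokine Ccl3 (0.69), all with adjusted p-values of 0.000121 or less.

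**Figure D3:**
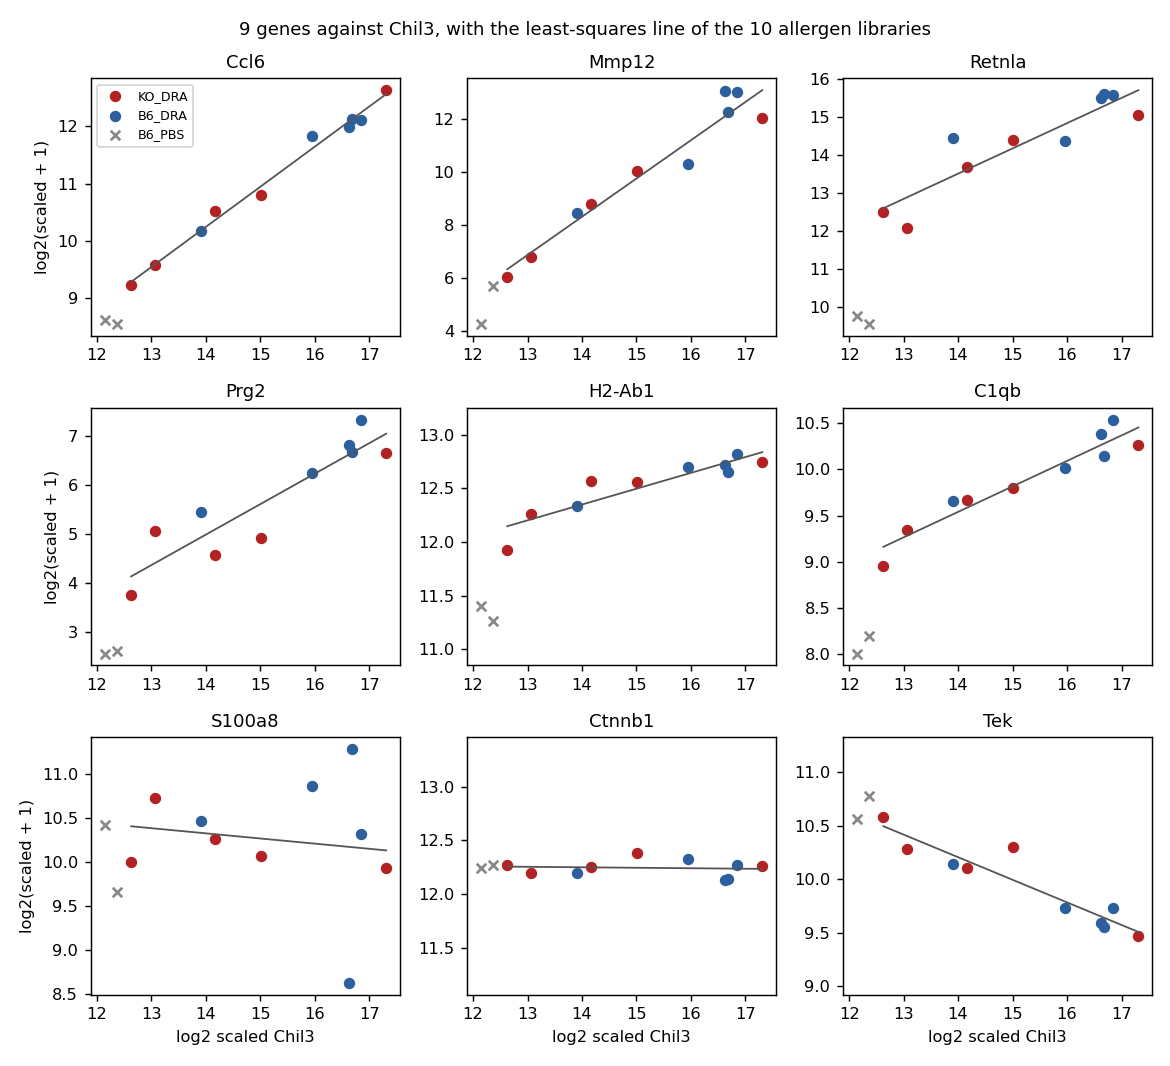
Levels of 9 genes, as log2 of the scaled count plus 1, against log2 scaled Chil3 in KO_DRA (red, n = 5), B6_DRA (blue, n = 5) and B6_PBS (grey crosses, n = 2) libraries. Points are libraries, and lines are least-squares fits to the 10 allergen libraries. Ccl6, Mmp12, Retnla, Prg2, H2-Ab1 and C1qb increase, S100a8 scatters, Ctnnb1 is level and Tek declines. The PBS libraries lie below the lines of Retnla, H2-Ab1 and C1qb.

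Most tested genes of the neutrophil chemokine and IL-17 pathway list rose, while the genes of neutrophils themselves did not move together with Chil3. Of 6 tested chemokines and cytokines of this pathway 4 rose: Cxcl5 (slope 0.59, adjusted p = 0.0154), Cxcl3 (0.54, adjusted p = 2.22e-05), Cxcl1 (0.36, adjusted p = 0.031) and Csf2 (0.25, adjusted p = 0.0196), with a list median of 0.31. With genotype as a block 3 of the 4 were called. With the negative controls as a covariate Cxcl3 kept its call (adjusted p = 0.000539). Cxcl5, Cxcl1 and Csf2 lost theirs (adjusted p = 0.117, 0.231 and 0.118). Cxcl1 was also not called by rank (rho = 0.62, permutation p = 0.0615, adjusted p = 0.122). Of 10 tested neutrophil genes 2 rose, 1 fell and 7 were undecided, with a median slope of 0.01 that became -0.28 with library size alone. S100a8, a calprotectin subunit that fills the neutrophil cytosol, measured 1020.0, 1691, 1408, 1218, 1073, 1859, 392, 2483, 1268 and 976 in the Chil3 order, against 805 and 1368 in B6_PBS. High and low values were mixed along the order, with B6_DRA 3 lowest and B6_DRA 7 highest. The interval of the slope, -0.26 to 0.26, included both directions. Cxcr1, a receptor for such chemokines, rose (slope 1.03, SE 0.207, adjusted p = 0.00116) but was high only from B6_DRA 4 on, at 9.87, 7.34, 9.58, 4.83, 9.08, 153, 33.9, 49.1, 50.6 and 236. Its counts before B6_DRA 4 were near their libraries' background, and in KO_DRA 12 and KO_DRA 11 below it, so the size of the slope is limited by the background. Fpr1, the formyl peptide receptor, fell, at 148, 126, 104, 109.9, 77.2, 94.0, 8.48, 39.3, 18.5 and 69.4 in the Chil3 order against 141 and 144 in B6_PBS. Its lowest values were in B6_DRA 3, below that library's background, and in B6_DRA 6. Its slope was -0.43 (SE 0.122, adjusted p = 0.0113), and it was the lowest slope of the panel.

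Genes of macrophages and dendritic cells rose broadly. Of 7 tested alveolar macrophage genes 6 rose (median slope 0.29), of 13 monocyte and interstitial macrophage genes 7 rose and 3 were bounded (0.15), and of 10 dendritic cell genes 8 rose and 2 were bounded (0.19), with 5 of the 8 called with genotype as a block. None of these lists had a faller, and the medians of the monocyte and dendritic lists turned negative with library size alone, at -0.12 and -0.06. Itgax, the integrin CD11c of alveolar macrophages and dendritic cells, measured 87.9, 104, 120.3, 123, 178, 359, 427, 388, 440.3 and 524 in the Chil3 order, against 55.2 and 79.9 in B6_PBS. Its largest step lay between KO_DRA 11 and B6_DRA 4, and its slope was 0.59 (SE 0.0345, adjusted p = 4.36e-08). Cd68, a lysosomal protein of macrophages, had a slope of 0.55 (adjusted p = 4.73e-07), and Fabp4, a lipid carrier of alveolar macrophages, one of 0.67 (adjusted p = 6.14e-06). Marco, a scavenger receptor of alveolar macrophages, did not follow, with levels of 106, 104, 58.5, 72.4, 32.9, 154, 10.4, 11.2, 9.87 and 218 in the Chil3 order against 122 and 147 in B6_PBS. It was highest in the library labelled KO_DRA 8 and B6_DRA 4 and about an order of magnitude lower in B6_DRA 3, B6_DRA 7 and B6_DRA 6. In these low libraries its counts were near the background, and in B6_DRA 6 below it, so the size of that difference is not resolved. The interval of its slope was -0.50 to 0.45, and Marco is named after its values were seen. Ly6c1, shared by monocytes and endothelium, was bounded at -0.04 (-0.11 to 0.03). Among dendritic genes Batf3 (0.39), needed for cross-presenting cells, and Irf4 (0.33), needed for those that prime T helper 2 cells, rose, whereas Irf8 and Ccr7 were bounded.

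Fc receptors, complement and antigen presentation rose with smaller slopes. Of 7 tested Fc receptor genes 5 rose (median 0.25), led by Fcgr3 (slope 0.46, SE 0.0379, adjusted p = 7.17e-07), while Fcgr1 was bounded at -0.03 (-0.13 to 0.08). Of 9 complement genes 8 rose and C5ar1 was undecided (median 0.25). C1qb, a subunit of the C1q recognition molecule made by macrophages, measured 493, 650.5, 807, 811, 891, 1037, 1332, 1129, 1489 and 1231 in the Chil3 order, against 292 and 255 in B6_PBS. It increased over each of the first 7 libraries, with a slope of 0.28 (SE 0.0312, adjusted p = 1.17e-05). Itgb2, the integrin chain of complement receptors, had a slope of 0.49 (adjusted p = 3.89e-08). Of 13 genes of MHC class II presentation 8 rose, 3 were bounded and 2 were undecided, with a median of 0.14 that became -0.12 with library size alone. H2-Ab1, a class II beta chain, measured 3899.6, 4916, 5169, 6077, 6045, 6644, 6742, 6421, 7234 and 6864 in the Chil3 order, against 2455 and 2712 in B6_PBS. Most of its increase lay between KO_DRA 10 and KO_DRA 12, after which it changed little, and its slope was 0.15 (SE 0.0266, adjusted p = 0.000586). Ctss, the cathepsin that trims the invariant chain, was far steeper at 0.53 (adjusted p = 3.4e-07), and the costimulatory genes Cd80 (0.32), Cd83 (0.27) and Cd86 (0.20) rose, whereas Cd40 was bounded at -0.01 (-0.08 to 0.06).

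Of 7 tested T cell genes 4 rose, namely the checkpoint receptors Pdcd1 (slope 0.34, SE 0.0719, adjusted p = 0.00153), Ctla4 (0.24, adjusted p = 0.00583) and Tigit (0.26, adjusted p = 0.0388) and the costimulator Icos (0.15, adjusted p = 0.0357). With genotype as a block Pdcd1 and Ctla4 were called and Tigit and Icos were not (adjusted p = 0.123 and 0.0816). The signalling chain Cd247 was bounded at 0.006 (-0.11 to 0.12), and the list median of 0.15 became -0.13 with library size alone. None of 5 tested genes of B cells and lymphoid tissue passed in either direction, and all 5 were undecided. All 3 tested NK and cytotoxic genes fell. Nkg7, a granule membrane protein, measured 126, 119, 115, 115, 93.1, 68.5, 62.2, 84.1, 67.8 and 59.3 in the Chil3 order, against 81.9 and 105 in B6_PBS. Its slope was -0.23 (SE 0.0373, adjusted p = 0.000199). Gzma, granzyme A, had a slope of -0.22 (adjusted p = 0.00207), and Klrk1, the activating receptor NKG2D, one of -0.16 (adjusted p = 0.0398). Of 4 tested mast cell and basophil genes only Gata2 passed, with a slope of -0.22 (adjusted p = 0.00265), Hdc, the histamine-forming enzyme, was bounded at -0.002 (-0.09 to 0.09), and Cpa3, Tpsb2, Fcer1a and Ms4a2 did not pass the filter.

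Several genes of lipid mediator synthesis rose, and a gene of prostaglandin breakdown fell. Of 6 tested leukotriene pathway genes 5 rose (median 0.11, or -0.16 with library size alone). With genotype as a block 2 of the 5, Alox15 and Lta4h, were called. Apart from Alox15 their slopes were shallow, with Lta4h, the leukotriene A4 hydrolase, at 0.08 (adjusted p = 0.00958) and Alox5ap, which presents the substrate to 5-lipoxygenase, at 0.10 (adjusted p = 0.0135). Of 7 tested prostaglandin genes 3 rose, 1 fell and 3 were undecided (median 0.06, or -0.22 with library size alone). These shares, 42.9% rising and 14.3% falling, stood beside 30.1% and 16.8% of all genes. Ptgs1, cyclooxygenase-1, rose with a slope of 0.17 (adjusted p = 0.000199), as did Ptgdr, a prostaglandin D2 receptor, at 0.38 (adjusted p = 0.000199). Hpgd, which inactivates prostaglandins, was one of the most abundant genes that fell. It measured 6432, 5840.4, 5349, 4419, 4828, 4233, 2977, 2667, 3286 and 2132 in the Chil3 order, against 7619.5 and 6995 in B6_PBS. Its slope was -0.28 (SE 0.0363, adjusted p = 3.89e-05), a fitted fold of 0.398 across the order.

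Most genes of the endothelial list fell. The list holds growth factor genes that act on endothelium, such as Vegfa and Angpt1, beside genes of the vessel wall itself. Of 10 tested endothelial genes 8 fell, none rose and 2 were undecided, with a median slope of -0.20 against 0.02 over all genes and -0.23 with TMM. Tek, the angiopoietin receptor TIE2, measured 1531, 1243, 1131, 1099, 1261, 848, 768, 750.2, 849 and 707 in the Chil3 order, against 1752 and 1507 in B6_PBS. The lowest-Chil3 library was near the PBS level, and the libraries from B6_DRA 4 on were all below those before it, with a slope of -0.21 (SE 0.0291, adjusted p = 6.19e-05). Vegfa, the main endothelial growth factor, measured 2921, 2108, 2415, 2228, 2146, 1779, 1387, 1216, 1499 and 1272, against 3371 and 3093 in B6_PBS, with a slope of -0.23 (SE 0.0319, adjusted p = 5.56e-05). Thbd, the anticoagulant thrombomodulin (slope -0.20), Cdh5, VE-cadherin (-0.22), and Flt1, a VEGF receptor (-0.21), fell alike, with adjusted p-values of 0.00112 or less. Summed over the list of 10 genes, with Vegfa a large part of it, the signal was 4998 to 10681 in KO_DRA libraries, 4728 to 8610 in B6_DRA and 10447 to 12377 in B6_PBS. The summed eosinophil list was 302 to 2045 in KO_DRA, 947 to 4357 in B6_DRA and 213 to 227 in B6_PBS. What part a change in cell makeup has in the fall of the endothelial list was not tested.

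Fibroblast and growth factor genes fell more often than they rose. Of 14 tested members 7 fell, 2 rose, 3 were bounded and 2 were undecided, with a median of -0.09. Bmp6, a bone morphogenetic protein, had a slope of -0.27 (SE 0.042, adjusted p = 0.000159). The platelet-derived growth factor genes Pdgfa (-0.11) and Pdgfb (-0.21) and their receptors Pdgfra (-0.17) and Pdgfrb (-0.20) all fell. Col12a1 and Col17a1 fell with slopes of -0.37 and -0.33, whereas the fibrillar collagen genes Col3a1 and Col1a2 were bounded at 0.03 (-0.05 to 0.10) and -0.03 (-0.12 to 0.06). Fn1, fibronectin, rose at 0.19 (adjusted p = 0.00778), and Tgfb1 rose at 0.16 (adjusted p = 0.0012). Both slopes turned negative with library size alone, at -0.05 for Fn1 and -0.10 for Tgfb1. Other genes among the 15 lowest slopes were Cxcl14, a chemokine of epithelium (-0.35), Cdh11, the cadherin of fibroblasts (-0.27), Fgf10, a growth factor of lung mesenchyme (-0.25), Edn1, endothelin-1 (-0.25), Il12a, a subunit of the type 1 cytokine IL-12 (-0.33), and Nox1 (-0.29). Cdh11 measured 766, 684, 756, 523, 599, 446, 423, 363, 358 and 307 in the Chil3 order, against 729 and 736 in B6_PBS, with rho = -0.98 (permutation p = 1e-05, adjusted p = 0.000926) and r = -0.94 (permutation p = 0.00015, adjusted p = 0.00152), or -0.93 without the 2 farthest libraries.

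Slopes of immediate early genes rested in part on single libraries. Of 10 tested members 6 fell, 2 rose and 2 were undecided, with a median of -0.14. With genotype as a block 2 of the 6 fallers, Ier3 and Gadd45b, and both risers, Egr2 and Egr3, were called. At equal Chil3 1 of the 10 was lower in KO_DRA, against 293 of all 648 genes. The median difference was 0.27 log2, against 0.015 over all genes, with no gene called. Dusp1, a phosphatase induced within minutes by stress, measured 6135, 1869.9, 1145, 1396, 2188, 1450.2, 1545, 2147, 1133 and 1598 in the Chil3 order, against 3460.1 and 2031 in B6_PBS. KO_DRA 10 alone was far above the others, and the slope of -0.26 (SE 0.0951, adjusted p = 0.036) became 0.16 within B6_DRA and 0.06 without the 2 farthest libraries. Fosb behaved alike, with -0.24 over all 10 libraries, 0.04 within B6_DRA and 0.02 without the 2. Ier3 fell with a slope of -0.15 (adjusted p = 0.00179), while Egr2 rose at 0.34 (adjusted p = 0.00476).

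Interferon genes did not rise with Chil3. Of 12 tested members 4 fell, 6 were bounded and 2 were undecided, with a median of -0.05. Isg15, an interferon-induced ubiquitin-like protein, measured 182, 206, 159, 186, 165, 134, 129, 133, 139 and 135 in the Chil3 order, against 173 and 281 in B6_PBS, with a slope of -0.13 (SE 0.0283, adjusted p = 0.00203). Mx2 had a slope of -0.24 (adjusted p = 0.00313). The bounded ones included the receptor chains Ifnar1 (-0.04, interval -0.12 to 0.03), Ifnar2 and Ifngr1, the transcription factor Irf3 and the antiviral gene Mx1. Among 23 sensors and genes of NF-kB signalling 7 rose, led by Il1a (slope 0.55, SE 0.0743, adjusted p = 5.37e-05) and Tlr7 (0.25, adjusted p = 8.9e-05), none fell, 6 were bounded and 10 were undecided (median 0.08, or -0.20 with library size alone). The share that rose, 30.4%, was that of all genes tested, 30.1%, whereas 16.8% of all genes fell. Tlr2 (0.003, interval -0.09 to 0.10), Tlr3, Nfkb1, Nfkbia, Myd88 and Traf6 were the bounded ones. Of 16 adhesion and trafficking genes 6 rose, 2 fell, 5 were undecided and 3 were bounded (median 0.08, or -0.20 with library size alone). These shares, 37.5% rising and 12.5% falling, were near the 30.1% and 16.8% of all genes. With genotype as a block 5 of the 6 risers and 0 of the 2 fallers were called. The bounded ones included the endothelial ligands Icam1 (-0.04, interval -0.10 to 0.006) and Vcam1 (-0.02, interval -0.10 to 0.05). Of 4 proliferation genes Top2a rose at 0.12 (adjusted p = 0.0493), which turned negative with library size alone and was not called with genotype as a block, and 3 were undecided.

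Among abundant genes that did not depend on Chil3 within these bounds, Ctnnb1, beta-catenin, measured 4952, 4683, 4702, 4886, 5352, 5135, 4495, 4521, 4937 and 4903 in the Chil3 order, against 4929 and 4858 in B6_PBS. Its slope was -0.004 with an interval of -0.06 to 0.05, with no library far from the others. Cd36 (-0.01, interval -0.09 to 0.06), a fatty acid receptor of endothelium and macrophages, Lamp3 (0.03, -0.04 to 0.10), of alveolar type II and mature dendritic cells, and Psme2 (0.004, -0.05 to 0.06), a proteasome activator subunit, were also bounded. S100a11 (0.04, -0.002 to 0.09) stayed within its bound although its correlation with Chil3 was rho = 0.81 (permutation p = 0.00671, adjusted p = 0.0228) and r = 0.84 (permutation p = 0.0035, adjusted p = 0.0118; 0.83 without the 2 farthest libraries). Of the 20 housekeeping probes 19 had slopes from -0.08 to 0.03, and Gusb, a lysosomal enzyme, had 0.29.

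The relation to Chil3 had the same sign within each genotype for most called genes. With genotype as a block 171 genes rose (26.4%) and 94 fell (14.5%), including 169 of the 195 risers and 87 of the 109 fallers. These within-group counts rest in part on single libraries, being 95 and 33 without the library labelled KO_DRA 8, and 59 fallers without B6_DRA 5. Fitted in KO_DRA and B6_DRA apart, 192 risers were positive in both and 105 fallers were negative in both, whereas 512 of all 648 genes had 1 sign in both. The risers and fallers were called from these same libraries, so their shared signs are in part built in and are a description. The 103 genes called higher in KO_DRA alone were positive in B6_DRA in 100 cases, the exceptions being C4a, Cd163 and Lif, against 50.3% of the 582 genes tested in both. The 45 called lower and tested in both were all negative, against 49.7%. The 53 called higher in B6_DRA were positive in KO_DRA in every case (57.2% of all), and the 16 called lower were all negative (42.8%).

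**Figure D4:**
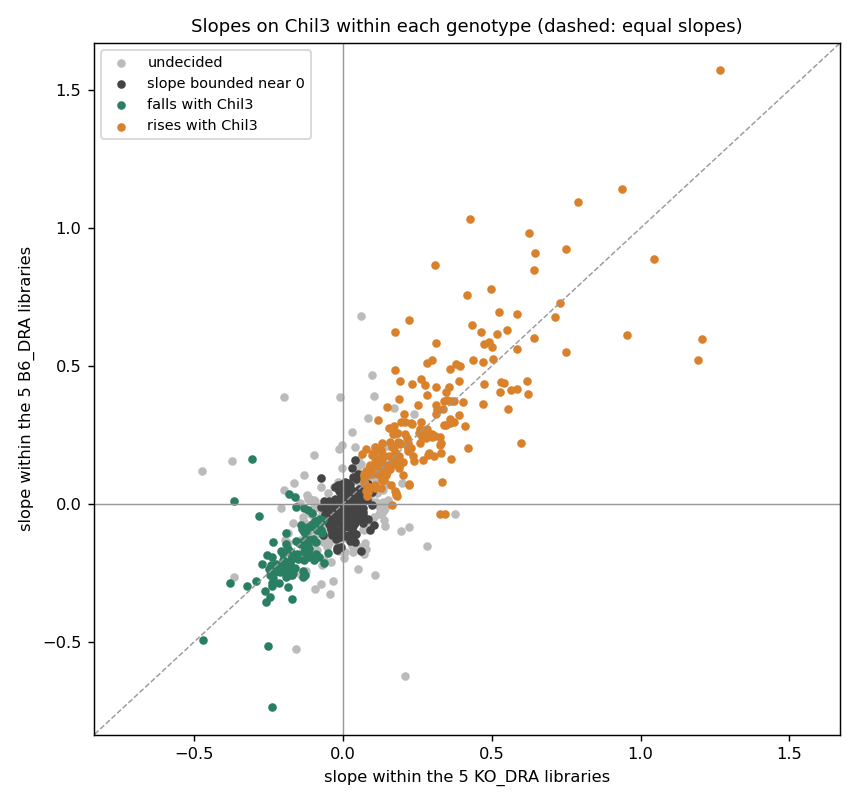
Slope on Chil3 within the 5 KO_DRA libraries (x) and within the 5 B6_DRA libraries (y), in log2 change per doubling of Chil3, 1 point per tested gene, coloured by the call over all 10 libraries. Of the orange risers 192 of 195 lie in the upper right quadrant, and of the green fallers 105 of 109 lie in the lower left. Both sets were called from these same libraries.

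At equal Chil3, no gene differed between KO_DRA and B6_DRA in edgeR's test (0 of 648, 0%; smallest adjusted p = 0.488), 37 had an unadjusted p under 0.05, and DESeq2 called 0 as well. The 4 smallest p-values belonged to Rnase2a at -1.38 log2 (SE 0.315), Cd209e at -1.29 (SE 0.333), Ccl11 at -0.57 (SE 0.155), and Ccl8 at -0.87 (SE 0.237). Ccl24 was at -1.53 (SE 0.488), whereas Ear3, an eosinophil-associated ribonuclease gene, was at 0.38 (SE 0.139) and Fabp4 at 0.51 (SE 0.21). None of these passed. Of the 14 alternative macrophage genes 8 were negative, against 293 of all 648 genes. Among the 10 chemokines and receptors of type 2 inflammation 9 were negative (median -0.57). In the eosinophil list 7 of 8 were negative (median -0.36) and in the complement list 8 of 9 (median -0.14), against a median of 0.015 over all genes. Other lists went the other way, with 0 of 5 genes of B cells and lymphoid tissue negative (median 0.34). These list counts carry no test. Retnla was at -0.70 (SE 0.259, adjusted p = 0.798). Mean log2 scaled Rnase2a was 7.30 in KO_DRA and 10.16 in B6_DRA, before Chil3 was set equal. Rnase2a passed without B6_DRA 4 and Cd209e without KO_DRA 11. Nor did any slope differ between the genotypes (0 of 648, 0%; smallest adjusted p = 0.999; 13 with an unadjusted p under 0.05, DESeq2 0), with Ccl9 and Marco called when B6_DRA 5 was left out. The groups differed in mean Chil3, so these values are conditional on it, and with 5 libraries each they do not show that the genotypes are alike.

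The PBS libraries had no part in the order and gave a comparison of their own: whether a gene in allergen lung lay off the PBS level once Chil3 was set equal. Both PBS libraries had less Chil3 than every allergen library, so equal Chil3 is reached only by extending a straight line. For genes that bend along the order, such as H2-Ab1 and Ccl3, the difference depends on that line. Over 12 libraries and 671 genes, 20 genes (2.98%) were higher with allergen at equal Chil3 and 1 (0.149%), Ccl3, was lower, with 80 at an unadjusted p under 0.05. Antigen presentation and C1q stood out by number. H2-Eb1 was 0.87 log2 higher (SE 0.137, adjusted p = 0.00531), H2-Ab1 0.77 (SE 0.129), H2-Aa 0.78 (SE 0.142) and the invariant chain gene Cd74 0.68 (SE 0.141), and 6 of the 13 class II genes passed in all. C1qb was 0.96 higher (SE 0.151, adjusted p = 0.00531), and C1qa and C1qc passed beside it. Retnla was 2.84 higher (SE 0.474, adjusted p = 0.00531) and Ccl8 2.47 (SE 0.531, adjusted p = 0.018). The T cell genes Ctla4, at 1.80 (SE 0.363), and Cxcr6, a receptor of tissue-resident T cells, at 1.11 (SE 0.251), passed, and Cxcr6 was bounded along the Chil3 order. Cxcl10, an interferon-induced chemokine, was 1.52 higher (SE 0.381, adjusted p = 0.0428) with no called slope on Chil3. Ccl3 had a difference of -1.75 (SE 0.346, adjusted p = 0.0122), measuring 31.4, 32.6, 22.4, 27.8, 43.1, 89.6, 146, 144, 164 and 212 in the Chil3 order against 56.9 and 56.8 in B6_PBS. Its first 5 allergen libraries lay below both PBS libraries. All of this rests on 2 PBS libraries: without either of them no gene passed, with 59 and 58 at an unadjusted p under 0.05, although all 20 kept their sign. Without KO_DRA 9, which had the next to lowest Chil3 of the allergen libraries, 10 of the 20 passed. Without KO_DRA 10, which had the lowest, 28 genes were higher, 18 of them among the 20, and 2 were lower. With B6_DRA alone against B6_PBS 2 of the 20 passed.

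**Figure D5:**
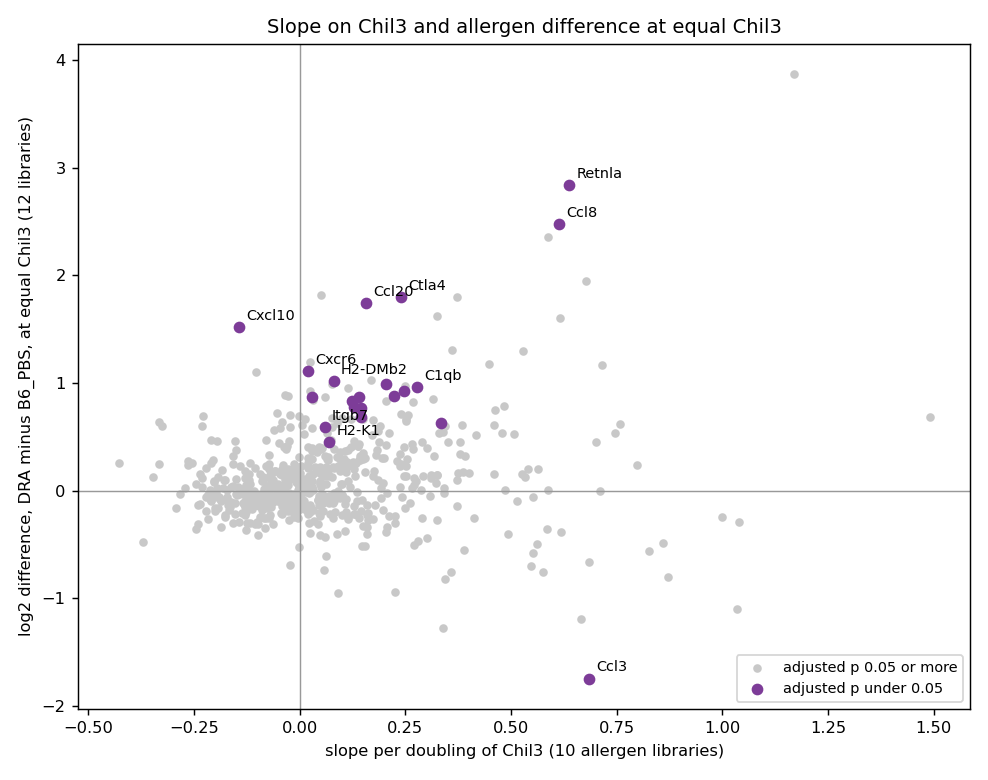
Slope on Chil3 in the 10 allergen libraries (x, log2 change per doubling of Chil3) against the log2 difference of the 10 DRA libraries minus the 2 B6_PBS libraries at equal Chil3 (y), 1 point per gene tested in both fits. Purple points have an adjusted p under 0.05. Retnla and Ccl8 combine a slope above 0.6 with a difference above 2, Cxcr6 and Itgb7 differ with slopes near 0, and Ccl3 is lower at equal Chil3.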

How the data were processed

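NanoString innate immune panel profiles of 12 mouse whole-lung RNA samples were analysed, 5 KO_DRA, 5 B6_DRA and 2 B6_PBS. The deposited raw table holds each probe's count, and in the deposited scaled table the authors gave a normalised signal, each library's counts times its own factor. How the factor was made is not stated. After it the geometric mean of the 20 probes read here as housekeeping, from their place in the table, lay between 323 and 343, so the factor was close to a housekeeping scaling without equalling this one. R 4.2.0, edgeR and limma are listed, per the submitters' processing notes, with no step attached. The edgeR p-values weigh a slope or difference against the scatter of these lungs around the fit. The labels do not describe each mouse. No columns of other samples were present.

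The members, gene lists and tests were chosen with earlier results of these data known. Raw counts were fitted with edgeR 4.0.16 (R 4.3.3, quasi-likelihood, filterByExpr minimum count 10, library sizes from the authors' factor) on log2 of scaled Chil3 over the 10 allergen libraries, leaving 8 residual degrees of freedom. P-values were Benjamini-Hochberg adjusted over all genes tested, with a threshold of 0.05. Standard errors are the slope divided by the square root of F. Levels are the authors' scaled values, with a pseudocount of 1 on the log2 scale. Correlations used 100000 permutations, two-sided (scipy 1.17.1, numpy 2.4.6, pandas 2.3.3, Python 3.11.15). Further fits added genotype, its interaction with Chil3, or allergen treatment over 12 libraries with 9 residual degrees of freedom. Alternatives used DESeq2 1.42.0 and limma 3.58.1. The slope fit was tested on simulated data.

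A library's background was the mean plus 2 SD of its 8 negative control probes, 5.58 to 11.7 counts in the allergen libraries, and counts near it have no resolved order. Genes named were the 15 highest and 15 lowest slopes among called genes, up to 4 genes of each list by smallest p, abundant or listed bounded genes, the 10 smallest p in each direction of the allergen and genotype comparisons at equal Chil3, the 5 smallest of the slope difference, and type 2 genes fixed by name. Siglecf, Marco, S100a8, Tek, Tlr7, Fn1 and a few other list members were named outside this rule, after their values were seen.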

Additional observations from a re-analysis of the deposited data

Results flagged for a closer look

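The named genes were checked for a library far from the other 4 of its group, by the gap to its nearest neighbour over the group's range (Dixon). This picked out 31 of 378 checks, and chance alone flags about 1 in 20 groups. Gaps and ranges were taken on log2 of the scaled count plus 1, and the values printed are the authors' scaled counts.

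Most of them follow the 2 libraries whose Chil3 lay away from their group. Many of the checked genes were named for their slope on Chil3, so this pattern is in part built in. The library labelled KO_DRA 8 was the highest KO_DRA library for Ccl24 (35.8), Ccl3 (212), Cd80 (107), Cxcr1 (236), Ear6 (80.6) and Fcgr4 (480.4), and the lowest for Bmp6 (273) and Ier3 (396). B6_DRA 5 was the lowest B6_DRA library for Ccl6 (1146), Cd68 (592), Cd83 (191), Ctla4 (22.4), Cxcl3 (18.1), Fabp4 (97.9), Fcgr4 (128), H2-Eb1 (2562), Il1a (20.2), Il33 (905), Itgax (120.3), Plaur (209) and Rgs1 (17.0). Each of these libraries had the Chil3 farthest from its group's mean.

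The others do not have this pattern. KO_DRA 10, lowest in Chil3, was lowest for H2-DMa (501) and H2-DMb1 (218), which load class II molecules, and for the platelet chemokine Pf4 (92.4). KO_DRA 9 was lowest for Nfatc1 (96.2) and KO_DRA 12 for Ly6c1 (3149). Among B6_DRA libraries, B6_DRA 3 was lowest for Ly6c1 (2619), B6_DRA 6 was highest for Ear3 (2135), an eosinophil-associated ribonuclease gene, and Traf1 (250.4), and B6_DRA 7 was highest for Itgb7 (229) and lowest for Stat6 (718).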

How the results depend on the processing

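No paired analysis was possible because the replicate numbers run on through the study and no 2 groups share one. The counts of 195 rising, 109 falling and 185 bounded genes became 58, 438 and 9 with library size alone, 103, 46 and 33 in KO_DRA alone, and 54, 16 and 0 in B6_DRA alone, where 3 residual degrees of freedom remain. Falling genes numbered 164 with TMM, 68 with Retnla as the index, 68 without the 2 farthest libraries and 69 with the negative controls as a covariate. With Retnla or the eosinophil list as the index, bounded genes were not compared, since a doubling of that index is another step. Bounded genes numbered 86 without the 2 farthest libraries, 74 at a bound of 0.1 and 299 at a bound of 0.2. Leaving out each library in turn gave 151 to 194 rising, 75 to 128 falling and 147 to 186 bounded genes. Rank calls, 267 with all libraries, were 482 with library size alone, 37 without the 2 farthest libraries and 160 to 248 with each library left out. With genotype as a block, the 171 rising and 94 falling genes became 48 and 424 with library size alone, and ranged over 95 to 177 and 33 to 102 with each library left out. Genes lower in KO_DRA at equal Chil3 numbered 0 to 1, and slope differences 0 to 2, with each library left out. The 20 genes higher with allergen at equal Chil3 became 2 with B6_DRA only and 0 to 28 with each library left out, and the 1 lower gene became 2 with DESeq2 and 0 to 2.

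Dusp1 was 0.16 in B6_DRA alone and 0.055 without the 2 farthest libraries, and Fosb was 0.036 and 0.021. With library size alone 83 of the 195 rising genes had negative slopes. Among genes named by the rule these were -0.001 for Itgam, -0.11 for H2-Ab1, -0.012 for C1qc, -0.11 for Icos, -0.20 for Lta4h, -0.17 for Alox5ap, -0.16 for Alox5, -0.072 for Ptgs1, -0.10 for Hpgds, -0.10 for Tgfb1, -0.11 for Selplg, -0.033 for Cd44, -0.05 for Tnfaip3, -0.11 for Tlr4 and -0.15 for Top2a, and among others in the text -0.05 for Fn1, -0.10 for Siglecf, -0.05 for Cd86, -0.11 for Cd74, -0.12 for H2-Eb1, -0.13 for H2-Aa and -0.12 for C4a. The cause of these changes was not tested, except that the single-genotype fits use 5 libraries. Of the slopes of named genes under all alternatives, 3610 kept their call and sign or, where not called, moved by less than their standard error, 269 lost the call, 67 gained it, 118 that were not called moved by more than their standard error, and 19 called slopes changed sign. Low-count genes such as Il13 and Il4 are limited by the background.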

Other observations

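Once log2 Chil3 had been removed from each of the 648 genes by least squares, the first principal component of what remained held 24.6% of that variance. It was looked at after the values were seen and carries no test. The library labelled KO_DRA 8 scored 5.89 and B6_DRA 4 4.61 at 1 end, and B6_DRA 3 scored -5.51 and B6_DRA 6 -4.06 at the other, so libraries with similar Chil3 lay far apart. The highest loadings were of Marco (0.36), the formyl peptide receptor genes Fpr2 (0.24) and Fpr1 (0.21) and Cxcr1 (0.20), with S100a8, S100a9, Cxcl1 and Cxcl5 among the next. Marco was near the background in B6_DRA 3, B6_DRA 7 and B6_DRA 6, and Fpr1 was below it in B6_DRA 3. The lowest were of Rnase2a (-0.17), Mmp13 (-0.16), Mmp12 (-0.15) and Cd209e (-0.14), with Alox15, Ccl24 and Retnla among the next. B6_DRA 3 and B6_DRA 7 had nearly equal Chil3, 100949 and 104660, and S100a8 values of 392 and 2483.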
